A study of Mus musculus with 18 samples.

Results

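Transcript levels of glycolytic genes and of genes that sense or answer low oxygen were examined in mouse embryonic stem (ES) cells grown on PA6 stromal cells and in PA6 cells grown alone. A list of 36 genes was chosen by name, with earlier results of these data known. A gene was kept where at least 1 of its probes had a detection p-value under 0.05 on 3 or more of the 18 arrays, which left 31 genes with 47 probes out of 16446 genes with 22987 probes. Of the other 5 listed genes, SLC16A1, BNIP3 and PFKFB3 had probes detected on 0 arrays, and HK2 and LDHB were not analysed here because no probe carried those names.

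RNA of day 3 cultures was hybridised to Illumina MouseWG-6 bead arrays in 6 groups of 3. Co-cultures (ES/PA6) and mono-cultures (PA6) each received no growth factor (-GFs), 20 ng/ml FGF2 or BMP4, all in serum-free medium. The labels give 10 ng/ml for BMP4, and the study's methods state a lower dose for cultures on slides. The study asked how the factors steer ES cells toward endothelium, and the mono-cultures served to set the response of the stroma apart. The ES cells of all co-cultures were of 1 line, a knock-in that carries EGFP under the τ promoter and is maintained on fibroblast feeders. PA6 is a single bone marrow stromal line, and all 6 groups contained it. Each array came from its own well and biological replicate per the labels. The p-values rest on the spread of replicate cultures within groups, pooled over the 6 groups and moderated across all genes. Co-culture arrays with the same replicate number deviated alike, and the main fit has no term for that number. In RNA of mixed cultures, fewer cells of a type and less RNA per cell cannot be told apart.

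Glycolysis splits glucose into pyruvate, which is either reduced to lactate and exported or oxidised in mitochondria. Hypoxia-inducible factors (HIF) raise transcription of glucose transporters and of most glycolytic enzymes. When oxygen is plentiful, prolyl hydroxylases mark the HIF alpha subunits for destruction, and several of the hydroxylases are themselves HIF targets. Pluripotent cells are known for a high rate of glycolysis, and growth factor signalling and MYC also act on the same enzymes.

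Levels are normalized log2 intensities, and levels of different probes were not set against each other. A gene was called where its adjusted p was under 0.1 and its log2 fold change over 1 in size, in a single limma fit of the 18 arrays with Benjamini-Hochberg adjustment over 16446 genes. Values in parentheses after a pair of groups are log2 fold changes ± standard errors (SE) from that fit, with n = 3 arrays in each group. The labelled cells were checked by markers. Of the pluripotency markers 7 of 7 tested were detected in each co-culture group, and 6 of the 7 were undetected in PA6 -GFs. All 8 stromal markers were detected on at least 1 array of each mono-culture group. Among them POSTN was detected on 1 of 3 PA6 FGF2 arrays and on 0 co-culture arrays. The mean level of the 8 ran from 10.61 to 10.83 in ES/PA6 -GFs and from 11.90 to 12.14 in PA6 -GFs. The arrays of co-cultures had 19365 to 20412 detected probes, and those of mono-cultures 17125 to 18391.

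HIF recognises a short DNA core. The windows of 5 genes to which the results below return are printed here to show where that core lies in them. Each holds the 250 bases upstream of an annotated transcription start, read 5′ to 3′ on the strand of the gene (RefSeq, GRCm38.p6). Capitals mark ACGTG or GCGTG on either strand, and overlapping matches, as in CACGTG, were counted as 1.
The window of SLC2A1, the glucose transporter GLUT1, lies at chr4:119108495-119108744, plus strand, and has 2 matches.
SLC2A1: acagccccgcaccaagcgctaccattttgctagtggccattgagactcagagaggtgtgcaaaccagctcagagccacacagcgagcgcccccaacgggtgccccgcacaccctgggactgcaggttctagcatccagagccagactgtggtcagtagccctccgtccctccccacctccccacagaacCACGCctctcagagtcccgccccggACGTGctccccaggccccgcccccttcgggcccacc
The upstream window of LDHA, lactate dehydrogenase A, lies at chr7:46845554-46845803, plus strand, and has 3.
LDHA: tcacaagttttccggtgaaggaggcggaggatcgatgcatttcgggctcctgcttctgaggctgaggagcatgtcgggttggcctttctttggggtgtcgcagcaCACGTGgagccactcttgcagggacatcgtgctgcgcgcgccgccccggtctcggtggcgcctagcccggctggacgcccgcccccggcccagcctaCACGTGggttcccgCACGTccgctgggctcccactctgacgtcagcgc
The window of PGK1, phosphoglycerate kinase, lies at chrX:106186850-106187099, plus strand, and has 2.
PGK1: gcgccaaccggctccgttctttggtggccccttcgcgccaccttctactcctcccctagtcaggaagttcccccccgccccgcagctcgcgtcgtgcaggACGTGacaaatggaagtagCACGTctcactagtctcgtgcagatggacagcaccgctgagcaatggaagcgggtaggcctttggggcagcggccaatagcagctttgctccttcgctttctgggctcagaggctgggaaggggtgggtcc
The window of EGLN3, an oxygen-sensing prolyl hydroxylase, lies at chr12:54203875-54204124, minus strand, and has 1.
EGLN3: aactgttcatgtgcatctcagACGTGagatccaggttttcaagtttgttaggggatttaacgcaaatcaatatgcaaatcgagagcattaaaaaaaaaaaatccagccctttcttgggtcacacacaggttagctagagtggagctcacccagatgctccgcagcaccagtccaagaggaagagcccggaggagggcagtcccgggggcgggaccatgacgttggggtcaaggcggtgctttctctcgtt
The window of ADM, adrenomedullin, lies at chr7:110627407-110627656, plus strand, and has 2.
ADM: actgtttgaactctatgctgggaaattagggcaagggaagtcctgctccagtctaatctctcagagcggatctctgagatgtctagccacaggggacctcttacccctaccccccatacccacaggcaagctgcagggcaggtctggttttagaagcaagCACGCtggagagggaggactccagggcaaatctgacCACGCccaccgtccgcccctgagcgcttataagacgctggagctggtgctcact
All 31 genes matched a current symbol and 28 had a window, SLC2A3, EPAS1 and NDRG1 being the others. At least 1 match was present for 25 of the 28, and GPI1, TPI1 and ENO2 had 0. Counted by window, 32 of 40 (80.0%) had a match, where 12679 of all 32851 promoter windows (38.6%) did. Windows of the same gene can overlap, as for ENO1 and ALDOA, so that the same site can count in more than 1 window. Median G and C content was 61.6% in the windows of the list and 52.4% in all windows, and its part in the difference was not tested. These matches are letters in a window and do not show binding.

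The first comparison set co-cultures against mono-cultures, both without growth factors. Most of the glycolytic path was higher in the co-cultures, from glucose uptake to lactate formation, while genes of the hypoxia response went both ways. Of the 31 genes 22 were called, where 39.0% of all genes were. They divided into 17 higher and 5 lower, against 19.4% and 19.5% of all genes. SLC2A3, ALDOC and EGLN3, among the 17, were detected on co-culture arrays only. They passed the detection filter through the cultures in which they are high, so that their direction here is no independent result. All 3 remain in the counts and the median of this paragraph, and no count was made without them. Among the 20 genes of glucose uptake, glycolysis and pyruvate use, 14 were called higher, SLC2A3 and ALDOC among them, and 2 lower. Among the 11 genes of oxygen sensing and hypoxia response, 3 were higher, EGLN3 among them, and 3 lower. The median log2 fold change was 1.17 over the 31 genes and -0.11 over all genes. The 3 co-culture arrays lay wholly above the 3 mono-culture arrays for 18 of the 31 genes and wholly below for 9, against 32.8% and 37.6% of all genes. Markers differed in the same comparison. Of 6 cycling markers 6 were called higher (median 6.26), and 3 of them were undetected in PA6 -GFs. Of 6 tested adipocyte markers 4 were called lower, with changes from -3.98 to 0.82 (median -2.50). The part of these markers in the differences was not tested.

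**Figure D1:**
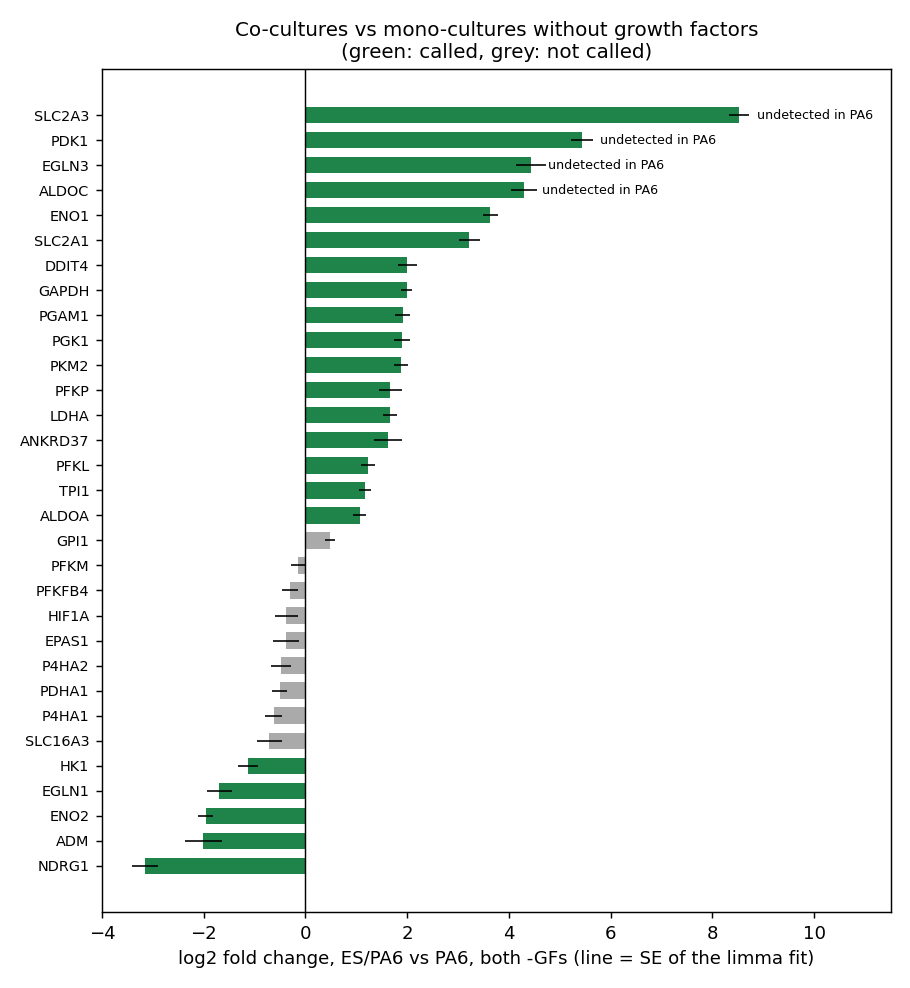
Log2 fold change of the 31 genes between ES/PA6 and PA6 in -GFs medium (x axis), sorted by size, with bars from 0 and lines for the SE of the limma fit; green bars are called, grey bars are not. ENO1 (3.63) and SLC2A1 (3.22) are the longest bars on the right among genes detected in PA6 -GFs. NDRG1 (-3.15) is the longest on the left, and the labels of undetected genes refer to the PA6 -GFs arrays.

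Both glucose transporters were higher in the co-cultures. SLC2A1 (GLUT1, which supplies basal glucose uptake) read 14.59, 14.36 and 14.18 on the ES/PA6 -GFs arrays and 11.63, 10.98 and 10.86 on the PA6 -GFs arrays (3.22 ± 0.201, adjusted p 8.12e-10). SLC2A3 (GLUT3, of high affinity for glucose) read 13.97, 13.50 and 14.01 in ES/PA6 -GFs and 5.15, 5.54 and 5.21 in PA6 -GFs. Its probe was undetected on all 9 PA6 arrays, so that only a bound is given, at least 184-fold higher. For such a bound each PA6 -GFs array contributed its lowest detected signal, or the probe's own signal where that was higher.

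The enzymes that trap and split glucose were mostly higher, with HK1 as the exception. HK1, a hexokinase, read 7.02, 7.67 and 7.15 in ES/PA6 -GFs and 8.45, 8.42 and 8.35 in PA6 -GFs (-1.13 ± 0.197, adjusted p 8.96e-05). The 3 phosphofructokinase genes encode the enzyme of the main control point, and they divided. PFKL, the liver form, read 13.08, 13.12 and 13.05 against 12.01, 11.62 and 11.91 (1.24 ± 0.137, adjusted p 6.63e-07), and PFKP, the platelet form, read 11.20, 10.47 and 11.24 against 9.27, 9.37 and 9.26 (1.67 ± 0.218, adjusted p 4.19e-06). PFKM, the muscle form, read 11.89, 12.05 and 12.14 against 12.04, 12.41 and 12.06, with groups that overlapped (-0.14 ± 0.131, adjusted p 0.345). The call of PFKL was absent at its other probe (-0.22).

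Aldolase cleaves the hexose. ALDOA, the form of most cells, read 14.08, 13.95 and 13.99 in ES/PA6 -GFs and 12.97, 13.01 and 12.83 in PA6 -GFs (1.07 ± 0.127, adjusted p 1.47e-06). ALDOC, known from brain, read 9.18, 8.90 and 9.65 in ES/PA6 -GFs and was undetected on all 9 PA6 arrays, which makes it at least 7.71-fold higher. TPI1, which interconverts the triose products, was higher by 1.17, and GPI1, the isomerase ahead of phosphofructokinase, differed by 0.48, under the fold threshold.

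The steps of glycolysis that yield ATP and pyruvate were called at all 6 genes tested. GAPDH, the dehydrogenase at their start, read 15.35, 15.41 and 15.48 in ES/PA6 -GFs and 13.47, 13.40 and 13.42 in PA6 -GFs (1.99 ± 0.103, adjusted p 8.51e-11). PGK1, PGAM1 and PKM2, a kinase, a mutase and pyruvate kinase, were higher by 1.89, 1.91 and 1.87. PKM2 is the array's name for the gene Pkm, and whether its probe separates the splice forms was not examined. The enolases went opposite ways. ENO1, the general form, read 15.24, 15.47 and 15.43 against 11.64, 11.67 and 11.94 (3.63 ± 0.142, adjusted p 2.77e-12). ENO2, the neuronal form, read 8.39, 8.49 and 8.61 against 10.56, 10.63 and 10.18 (-1.96 ± 0.151, adjusted p 9.56e-09).

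At the pyruvate branch, LDHA, which forms lactate, read 14.49, 14.54 and 14.65 in ES/PA6 -GFs and 12.87, 12.85 and 12.96 in PA6 -GFs (1.66 ± 0.135, adjusted p 1.91e-08). PDK1, the kinase that keeps pyruvate from mitochondrial oxidation, read 11.16, 10.81 and 11.02 against 6.03, 5.30 and 5.36. It was undetected on the 3 PA6 -GFs arrays and at least 25.9-fold higher in the co-cultures (adjusted p 5.18e-12). PDHA1, a subunit of the pyruvate dehydrogenase that PDK1 inhibits, differed by -0.50, under the fold threshold. SLC16A3, a lactate exporter, read 5.41, 6.02 and 5.67 against 6.80, 5.76 and 6.68 and was detected on 1 of 3 and 2 of 3 arrays of these groups. Its probes gave -0.71 and 1.35, so that no direction is given for it.

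In oxygen sensing the hydroxylases moved and the HIF subunits did not pass. EGLN1, the main hydroxylase of most cells, read 6.39, 6.16 and 6.54 in ES/PA6 -GFs and 8.09, 7.94 and 8.15 in PA6 -GFs (-1.70 ± 0.245, adjusted p 1.26e-05). EGLN3, an inducible hydroxylase, read 9.45, 8.97 and 9.54 against 4.98, 4.82 and 4.89. It was undetected on all 9 PA6 arrays and at least 8.13-fold higher in the co-cultures. HIF1A and EPAS1, which encode HIF-1α and HIF-2α, differed by -0.38 (adjusted p 0.149) and -0.38 (adjusted p 0.188).

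Among hypoxia response genes, DDIT4, an inhibitor of mTORC1, read 12.47, 12.26 and 12.45 in ES/PA6 -GFs and 10.39, 10.34 and 10.46 in PA6 -GFs (2.00 ± 0.189, adjusted p 1.11e-07). ANKRD37, a HIF target, was higher by 1.62. NDRG1, a stress-induced gene, read 8.90, 8.68 and 8.76 against 12.17, 12.03 and 11.61 (-3.15 ± 0.259, adjusted p 2.17e-08). NDRG1 and ADM were the hypoxia response genes called lower in the co-cultures. ADM, which encodes the vasodilator adrenomedullin, read 8.83, 8.69 and 9.40 against 10.94, 10.99 and 11.02 (-2.01 ± 0.36, adjusted p 0.000115). The collagen prolyl hydroxylase subunits P4HA1 (9.66, 9.41 and 9.63 against 10.19, 9.94 and 10.45) and P4HA2 (12.39, 12.70 and 13.08 against 13.14, 13.24 and 13.25) differed by -0.62 and -0.49. Both, and PFKFB4 (-0.31), which makes an activator of phosphofructokinase and read 8.26, 8.46 and 8.33 against 8.55, 8.71 and 8.72, were under the fold threshold. The other P4HA1 probe was called (-1.64), and the other probes of PGK1 (0.78) and, at 1 of 2, TPI1 (0.63) were under the fold threshold.

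The second comparison concerned FGF2 in the co-cultures. It lowered EGLN3 and ADM, and it went with lower levels of several enzymes of the path by less than the fold threshold. Called were 2 of the 31 genes, 0 higher and 2 lower, where 3.34% of all genes were called (2.14% higher and 1.20% lower). At any fold 10 passed the adjusted p, 1 higher and 9 lower, where 9.05% of all genes passed (5.27% higher and 3.78% lower). The FGF2 arrays lay wholly below the -GFs arrays for 13 genes and wholly above for 2, against 9.43% and 9.86% of all genes. The median change was -0.19 over the 31 genes and -0.01 over all genes.

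EGLN3 fell from 9.45, 8.97 and 9.54 in -GFs to 7.54, 7.41 and 7.96 with FGF2 (-1.68 ± 0.293, adjusted p 0.00206), and its call stayed without any 1 array. ADM read 8.83, 8.69 and 9.40 in -GFs and 7.33, 7.27 and 8.64 with FGF2 (-1.23 ± 0.36, adjusted p 0.0542). The third FGF2 array of ADM lay just under the lowest -GFs array. The ADM call was lost without -GFs replicate 3 (-1.02), FGF2 replicate 1 (-1.02) or FGF2 replicate 2 (-0.99), and with cubic spline normalization (-0.92).

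**Figure D2:**
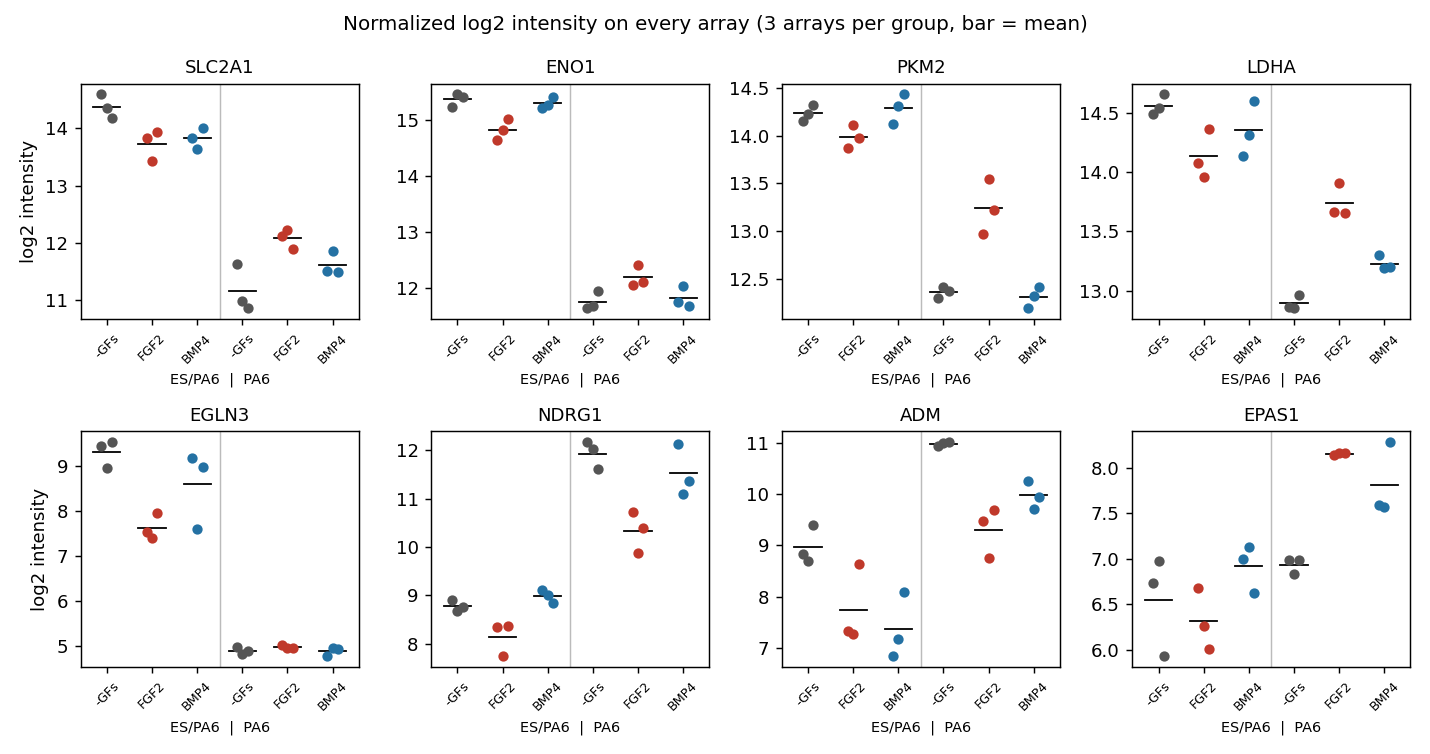
Normalized log2 intensity (y axis) of 8 genes on each of the 18 arrays, 3 points per group with a bar at the mean, in grey for -GFs, red for FGF2 and blue for BMP4; the vertical line parts co-cultures from mono-cultures. LDHA with FGF2 is below -GFs in ES/PA6 and above it in PA6, EGLN3 is low with FGF2 in the co-cultures and at background in PA6, and ADM is below -GFs in each treated group.

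Among the genes that passed the adjusted p alone, SLC2A1 read 13.83, 13.43 and 13.93 with FGF2, below every -GFs array (-0.65 ± 0.201, adjusted p 0.0708). SLC2A3 stood on the other side, with 14.53, 14.24 and 14.62 (0.64 ± 0.195, adjusted p 0.0665). The transporters thus had opposite signs. TPI1 read 14.58, 14.74 and 14.81 in -GFs and 14.07, 14.07 and 14.35 with FGF2 (-0.55 ± 0.122, adjusted p 0.0123), and ENO1 read 14.66, 14.83 and 15.02 (-0.55 ± 0.142, adjusted p 0.0298). LDHA read 14.07, 13.96 and 14.36 (-0.43 ± 0.135, adjusted p 0.0775). All 3 had FGF2 arrays wholly below the -GFs arrays. PFKL (12.59, 12.56 and 12.81), ALDOA (13.65, 13.67 and 13.53) and DDIT4 (11.82, 11.73 and 11.89) had changes of -0.43, -0.39 and -0.58, with 0.09 at the other PFKL probe. GAPDH (-0.03, 95% interval -0.25 to 0.19) and HIF1A (0.04, -0.43 to 0.51) did not pass. The dimmer probe of SLC16A3 was called lower (-1.13), while the brighter gave 0.00.

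The count past the adjusted p depended on single arrays: it was 5, 3 and 5 without -GFs replicates 1, 2 and 3, and 2, 5 and 7 without FGF2 replicates 1, 2 and 3. TPI1 passed in all 6 of these fits, and over all alternatives its adjusted p reached 0.223. With median scaling 5 genes passed, and 3 in a fit of the 9 co-culture arrays. Markers also moved in these cultures. Of the 7 pluripotency markers NANOG (1.25) and ZFP42 (1.19) were called higher and LIN28 (-1.63) lower, and the mean of the 7 ran from 11.29 to 11.92 in -GFs and from 11.72 to 11.93 with FGF2. The mean of the 8 stromal markers, 1 of them undetected, ran from 10.61 to 10.83 in -GFs and from 10.17 to 10.28 with FGF2. THY1 was the 1 stromal marker called, and it was lower (-1.08). The changes of the 6 tested adipocyte markers ran from -2.37 to -0.19 with a median of -0.87, and ADIPOQ (-2.37) was called lower. Their mean ran from 7.26 to 8.87 in -GFs, where 1 was undetected, and from 6.61 to 7.23 with FGF2, where 2 were. The mean of 6 cycling markers ran from 12.52 to 12.69 and from 12.51 to 12.72, and 0 were called by limma or had an unadjusted p under 0.05. The part of cell makeup in the lower levels was not tested.

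The third comparison concerned FGF2 in the stroma alone. There FGF2 lowered NDRG1 and ADM and raised EPAS1 and ANKRD37, and by less than the fold threshold it raised the transporter SLC2A1, LDHA and 4 of the 6 genes of late glycolysis. Called were 4 of the 31 genes, 2 higher and 2 lower, where 5.27% of all genes were called (2.71% higher and 2.56% lower). At any fold 14 passed the adjusted p, 10 higher and 4 lower, where 18.7% of all genes passed (9.19% higher and 9.55% lower). The FGF2 arrays lay wholly above the -GFs arrays for 13 genes and wholly below for 5, against 16.2% and 17.5% of all genes. The median change was 0.08 over the 31 genes and -0.01 over all genes.

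EPAS1 rose from 6.98, 6.83 and 6.99 in -GFs to 8.14, 8.15 and 8.16 with FGF2 (1.22 ± 0.25, adjusted p 0.00322). NDRG1 fell from 12.17, 12.03 and 11.61 to 10.73, 9.88 and 10.40 (-1.60 ± 0.259, adjusted p 0.000457). ADM fell from 10.94, 10.99 and 11.02 to 9.47, 8.76 and 9.69 (-1.68 ± 0.36, adjusted p 0.00446). For these 3 genes the groups did not overlap and the calls stayed without any 1 array. ANKRD37 read 7.37, 7.07 and 6.39 in -GFs and 7.70, 8.43 and 7.88 with FGF2 (1.06 ± 0.274, adjusted p 0.0153), also without overlap. Its call was lost without -GFs replicate 3 (0.78) or FGF2 replicate 2 (0.84). With cubic spline normalization EPAS1 (0.80) and ANKRD37 (0.67) were under the fold threshold.

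SLC2A1 read 11.63, 10.98 and 10.86 in -GFs and 12.12, 12.23 and 11.90 with FGF2 (0.93 ± 0.201, adjusted p 0.00481). PKM2 read 12.29, 12.42 and 12.38 in -GFs and 12.97, 13.55 and 13.22 with FGF2 (0.88 ± 0.139, adjusted p 0.000351), and its other probe was called (1.05). LDHA read 12.87, 12.85 and 12.96 in -GFs and 13.66, 13.91 and 13.66 with FGF2 (0.85 ± 0.135, adjusted p 0.000404). In all 3 the FGF2 arrays were wholly above. SLC2A1 was called without -GFs replicate 1 (1.16) or FGF2 replicate 3 (1.02), and PKM2 without FGF2 replicate 1 (1.02). With GAPDH (0.55), PGK1 (0.64) and ENO1 (0.44), 4 of the 6 genes of late glycolysis passed the adjusted p, all higher. Over the alternatives the adjusted p of PGK1 reached 0.234 and that of ENO1 0.221. The other two, PGAM1 (0.30 ± 0.142, adjusted p 0.193) and ENO2 (-0.20 ± 0.151, adjusted p 0.46), did not pass, and the transporter SLC2A3 was undetected in PA6 -GFs and FGF2. Of the 8 genes from hexokinase to TPI1, PFKP alone passed, and it was lower, with 8.24, 8.94 and 8.52 against 9.27, 9.37 and 9.26 (-0.73 ± 0.218, adjusted p 0.032).

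In oxygen sensing HIF1A read 9.05, 9.09 and 8.99 in -GFs and 10.33, 9.75 and 9.71 with FGF2 (0.89 ± 0.223, adjusted p 0.0124), while its other probe gave 0.06. EGLN1 read 8.09, 7.94 and 8.15 in -GFs and 7.47, 7.28 and 7.30 with FGF2 (-0.71 ± 0.245, adjusted p 0.0653), and DDIT4 read 10.39, 10.34 and 10.46 in -GFs and 10.57, 11.26 and 10.98 with FGF2 (0.54 ± 0.189, adjusted p 0.0696). Without any 1 array between 11 and 14 genes passed the adjusted p. Other cell properties moved in the same cultures. Of 6 cycling markers 5 were called higher, among them BIRC5 (1.93) and CCNB1 (1.62), and their mean ran from 6.34 to 6.59 in -GFs, where 3 were undetected, and from 7.39 to 8.48 with FGF2. Of 6 tested adipocyte markers 4 were called lower, among them ADIPOQ (-4.65) and LPL (-2.75), and their mean ran from 9.95 to 10.04 and from 6.77 to 7.28. Their part in the results was not tested.

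**Figure D3:**
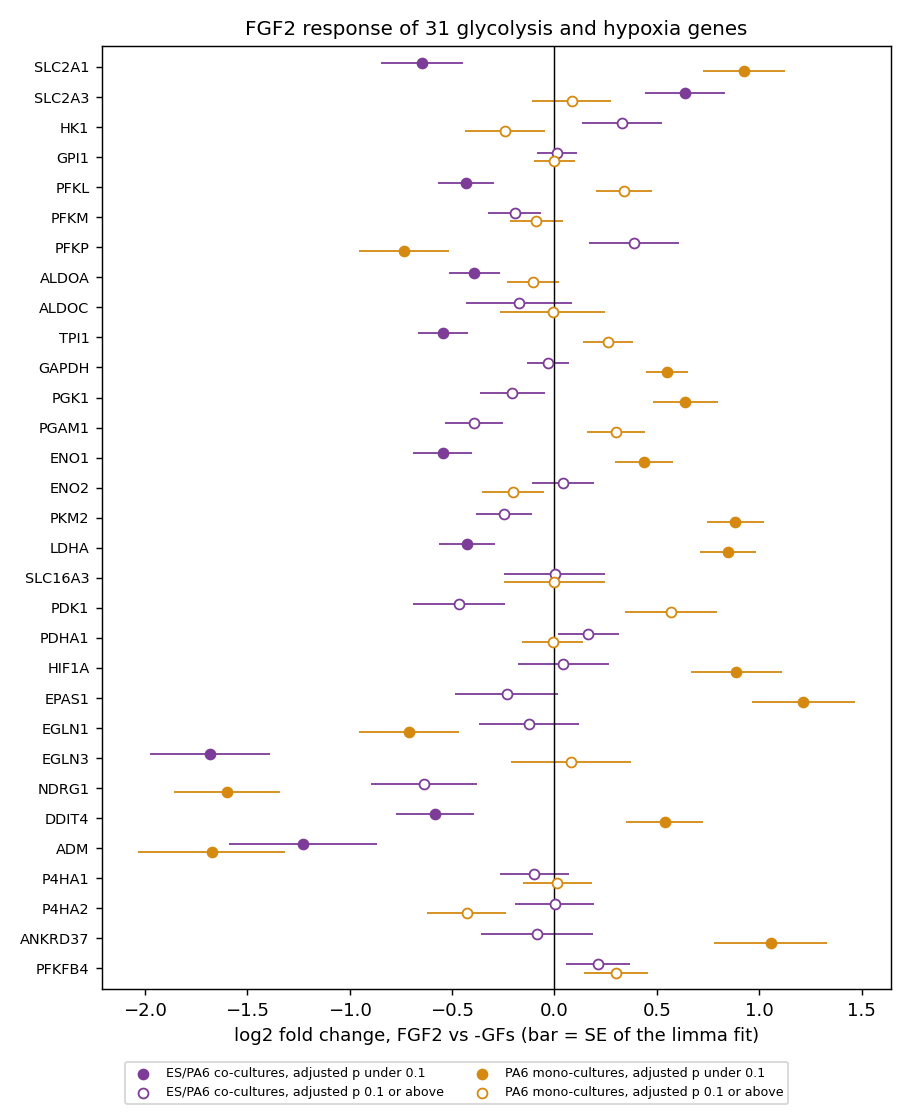
Log2 fold change of the 31 genes for FGF2 vs -GFs (x axis) in ES/PA6 (purple) and in PA6 (orange), with bars for the SE of the limma fit; filled points have an adjusted p under 0.1. SLC2A1, ENO1, LDHA and DDIT4 have filled points on opposite sides of 0, and both points of ADM are filled and left of 0.

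The fourth comparison tested whether the FGF2 effect differed between the culture types, as the effect in co-cultures minus that in mono-cultures. SLC2A1, PKM2 and LDHA, which act in glucose uptake, the last step of glycolysis and lactate formation, had a lower effect in co-cultures, and PFKP a higher one. Of the 31 genes 9 were called, 1 higher and 8 lower, where 7.39% of all genes were called (3.99% higher and 3.40% lower). At any fold 15 passed the adjusted p, 1 higher and 14 lower, where 15.0% of all genes passed (7.78% higher and 7.22% lower). The median difference was -0.28 over the 31 genes and 0.00 over all genes. By sign alone, 15 of the 31 genes were lower with FGF2 in co-cultures and higher in mono-cultures, and 7 the reverse, where 4036 and 3989 of the 16446 genes were. Leaving out 1 of the 12 arrays gave 5 to 10 calls, and 12 to 16 genes past the adjusted p. Markers differed in the same contrast. Of 6 cycling markers 5 were called lower (median of the 6 -1.41), and of 6 adipocyte markers 3 were called higher (median of the 6 2.42). Their part in the differences was not tested.

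The difference for SLC2A1 was -1.57 ± 0.284 (adjusted p 0.00217), that for LDHA -1.27 ± 0.191 (adjusted p 0.000527) and that for PKM2 -1.13 ± 0.196 (adjusted p 0.00163). For each of these genes the mean was lower with FGF2 in ES/PA6 and higher in PA6. PFKP had the opposite pattern, with 11.49, 11.33 and 11.26 in FGF2 co-cultures against 11.20, 10.47 and 11.24 in -GFs, and a difference of 1.12 ± 0.308 (adjusted p 0.0293). PDK1 read 10.73, 10.27 and 10.60 in FGF2 co-cultures and 5.74, 6.32 and 6.33 in FGF2 mono-cultures, where it was detected on 2 of 3 arrays against 0 in PA6 -GFs, with a difference of -1.04 ± 0.318 (adjusted p 0.0493).

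In the oxygen group EPAS1 read 6.74, 6.98 and 5.93 in -GFs co-cultures and 6.68, 6.26 and 6.00 with FGF2, and its difference was -1.45 ± 0.354 (adjusted p 0.016). That of EGLN3 was -1.77 ± 0.414 (adjusted p 0.0127), but the probe was undetected in PA6 with and without FGF2, so that no PA6 effect was measured and the value restates the fall in the co-cultures. DDIT4 differed by -1.12 ± 0.267 (adjusted p 0.0137). ANKRD37, with 8.55, 8.68 and 8.46 in -GFs co-cultures and 8.85, 8.62 and 7.97 with FGF2, differed by -1.14 ± 0.388 (adjusted p 0.0769). ADM was lower with FGF2 in both culture types, and its difference did not pass (0.45 ± 0.509, adjusted p 0.658, 95% interval -0.63 to 1.53).

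The calls of SLC2A1, LDHA, EPAS1 and EGLN3 stayed without any 1 of the 12 arrays. PFKP was lost without ES/PA6 -GFs replicate 2 (0.87) or PA6 FGF2 replicate 1 (0.96), and PKM2 (-0.98) and DDIT4 (-0.96) without PA6 FGF2 replicate 2. PDK1 (-0.96 to -0.90) was lost without ES/PA6 -GFs replicate 1, ES/PA6 FGF2 replicate 2, PA6 -GFs replicate 2 or 3, or PA6 FGF2 replicate 2 or 3. ANKRD37 (-1.20 to -0.86) was lost without ES/PA6 -GFs replicate 1 or 2, ES/PA6 FGF2 replicate 3, PA6 -GFs replicate 2 or 3, or PA6 FGF2 replicate 2. With cubic spline normalization EPAS1 (-0.92), ANKRD37 (-0.73), PFKP (0.98) and PDK1 (-0.74) were under the fold threshold. ENO1 (-0.99), PGK1 (-0.85), TPI1 (-0.81), PFKL (-0.77, with 0.13 at its other probe), PGAM1 (-0.69) and GAPDH (-0.58) passed the adjusted p and not the fold. Over the alternatives PGAM1 reached -0.15 (adjusted p up to 0.886), and the adjusted p of PGK1 reached 0.203. ENO1 was called without ES/PA6 -GFs replicate 1, ES/PA6 FGF2 replicate 3, PA6 -GFs replicate 3 or PA6 FGF2 replicate 1 or 3 (-1.08 to -1.03). HIF1A was called without ES/PA6 replicate 3 of -GFs (-1.01) or of FGF2 (-1.02), but over the alternatives its difference also reached -0.05 (adjusted p up to 0.963). NDRG1, with the higher effect in co-cultures, was called without ES/PA6 FGF2 replicate 2 (1.16), PA6 -GFs replicate 3 (1.13) or PA6 FGF2 replicate 1 (1.16).

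Few genes were called for BMP4, both in the list and among all genes. In the co-cultures 1 of the 31 was called, ADM, which was lower, where 0.760% of all genes were called. ADM read 6.85, 7.18 and 8.09 with BMP4, wholly below the -GFs arrays (-1.60 ± 0.36, adjusted p 0.0514). The call was lost without -GFs replicate 2 (-1.74, adjusted p 0.107), -GFs replicate 3 (-1.39), BMP4 replicate 1 (-1.34) or BMP4 replicate 2 (-1.51). The BMP4 arrays lay wholly below -GFs for 5 genes and wholly above for 1, against 6.97% and 6.06% of all genes. SLC2A1 was among the 5, with 13.83, 13.63 and 14.01 (-0.55 ± 0.201, adjusted p 0.278). EGLN3 read 9.20, 7.61 and 8.99, the second array being low among the 3 (-0.72 ± 0.293, adjusted p 0.353). Of the 6 adipocyte markers ADIPOQ (3.45) and CFD (3.19) were called higher in these cultures, and their mean ran from 7.26 to 8.87 in -GFs and from 9.07 to 11.17 with BMP4. Of 5 tested endothelial markers 1, PECAM1 (1.17), was called higher. The 2 tested neural markers changed by -1.85 and -1.82. Of these 0 were called by limma, and 2 had an unadjusted p under 0.05. The part of all these markers in the results was not tested.

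In the mono-cultures limma called 0 of the 31 genes for BMP4, where 1.41% of all genes were called. An unadjusted p under 0.05 was reached by 8 of the 31 and by 2078 of all 16446 genes. The arrays lay wholly above -GFs for 6 genes and wholly below for 4, against 11.1% and 10.3% of all genes. EPAS1 read 7.58, 7.57 and 8.28 with BMP4 (0.88 ± 0.25, adjusted p 0.0855) and was called with median scaling (1.02). ADM read 10.25, 9.72 and 9.95, all below the -GFs arrays (-1.01 ± 0.36, adjusted p 0.202). With the replicate number as a block ADM was called at the same change (adjusted p 0.0103), as it was in a fit of the 9 mono-culture arrays (adjusted p 0.0573). Without -GFs replicate 3, ANKRD37, with 6.00, 6.49 and 6.16 in BMP4, was called lower (adjusted p 0.0972). Of 6 tested adipocyte markers 2 were called higher in these cultures, with changes from 1.09 to 2.36. Of 6 cycling markers 1 was called higher, with changes from 0.15 to 1.04. The part of these markers was not tested.

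The BMP4 effect differed between culture types for 0 of the 31 genes by limma, where 0.559% of all genes were called. An unadjusted p under 0.05 was reached by 6 of the 31 and by 1602 of all 16446 genes. SLC2A1 had a difference of -1.01 ± 0.284 (adjusted p 0.169). It was called with the replicate block (adjusted p 0.0712) and without PA6 -GFs replicate 1 (-1.25).

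**Figure D4:**
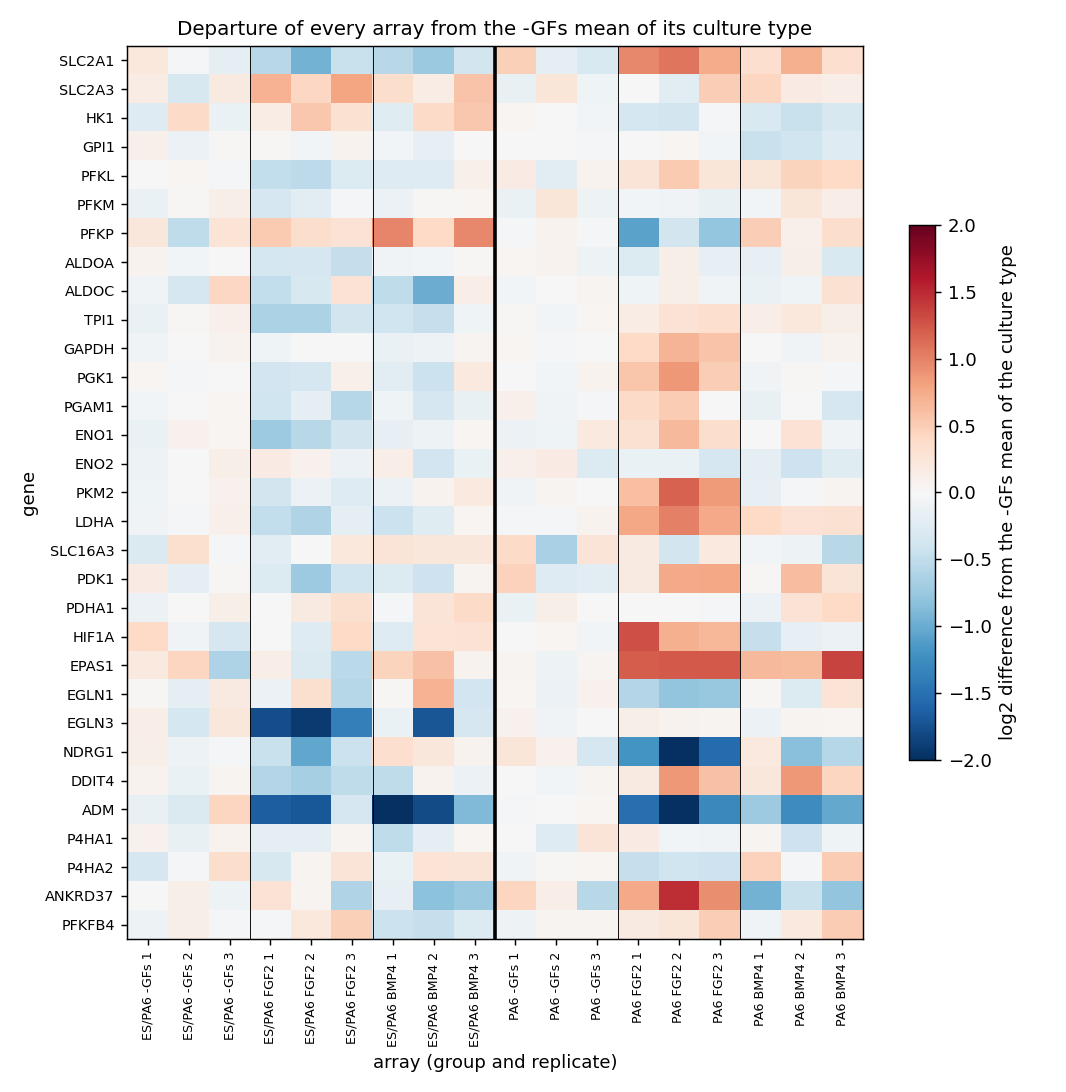
Difference in log2 units (colour, saturated beyond 2 in either direction) of each of the 18 arrays (columns) from the -GFs mean of its culture type, for the 31 genes (rows); red is higher and blue lower. In the FGF2 mono-culture columns SLC2A1, PKM2, LDHA and EPAS1 are red and NDRG1 and ADM blue, and ADM is blue in all treated columns.

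The factors were also set against each other, with arrays that the comparisons above share. In the co-cultures limma called 0 of the 31 genes for FGF2 vs BMP4, where 2.85% of all genes were called. An unadjusted p under 0.05 was reached by 7 of the 31 and by 2866 of all 16446 genes. EGLN3 was lower with FGF2 by less than the threshold (-0.96 ± 0.293, adjusted p 0.0757), and it was called without BMP4 replicate 2 (-1.46) or FGF2 replicate 3 (-1.12). PFKFB4 read 8.31, 8.57 and 8.83 with FGF2 and 7.92, 7.88 and 8.08 with BMP4, without overlap (0.61 ± 0.157, adjusted p 0.0343).

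In the mono-cultures 4 of the 31 genes were called, 2 higher and 2 lower with FGF2, where 5.82% of all genes were called (2.88% higher and 2.94% lower). ANKRD37 was higher with FGF2 (1.78 ± 0.274, adjusted p 0.000248), and with BMP4 it was detected on 1 of 3 arrays. HIF1A, with 8.58, 8.88 and 8.93 in BMP4, was higher (1.14 ± 0.223, adjusted p 0.00206), and its other probe gave 0.17. NDRG1, with 12.14, 11.11 and 11.37 in BMP4, was lower (-1.20 ± 0.259, adjusted p 0.0043), and so was PFKP, with 9.79, 9.40 and 9.64 (-1.05 ± 0.218, adjusted p 0.00333). Without PA6 FGF2 replicate 1 the calls of HIF1A (0.94) and PFKP (-0.88) were lost and PKM2 (1.08) was gained. PFKP (-0.96) and NDRG1 (-0.90) were lost without PA6 BMP4 replicate 1, and NDRG1 without PA6 FGF2 replicate 2 (-0.97).

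Further genes of the same pathways were counted from 2 related lists. Of 22 tested genes of glycolysis, glycogen, pentose phosphates and pyruvate, FGF2 called 1 in each culture type, where 3.34% (ES/PA6) and 5.27% (PA6) of all genes were called. BMP4 called 0 in both by limma, where 0.760% (ES/PA6) and 1.41% (PA6) of all genes were called. An unadjusted p under 0.05 was reached by 3 of the 22 in ES/PA6 and 6 in PA6, and by 1786 and 2078 of all 16446 genes. FBP2, a fructose bisphosphatase of gluconeogenesis, read 8.25, 7.92 and 6.93 in -GFs co-cultures and 9.19, 9.77 and 8.01 with FGF2 (1.29 ± 0.421, adjusted p 0.0883). The FBP2 arrays of both groups overlapped, and each FGF2 array was above the -GFs array of the same replicate number. PYGB, a glycogen phosphorylase, fell in PA6 cells from 12.90, 12.96 and 12.80 to 11.51, 10.85 and 11.52 with FGF2 (-1.59 ± 0.199, adjusted p 3.83e-05).

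Of 26 further genes tied to hypoxia, FGF2 called 1 in ES/PA6 and 5 in PA6, against the same 3.34% and 5.27% of all genes. BMP4 called 1 and 2, against 0.760% and 1.41%. AK3L1, an adenylate kinase, rose in the co-cultures from 9.62, 9.26 and 9.43 to 11.14, 10.99 and 10.62 with FGF2 (1.48 ± 0.154, adjusted p 2.17e-05). ANGPTL4, an inhibitor of lipoprotein lipase, read 8.79, 9.26 and 9.52 in PA6 -GFs, rose to 11.93, 11.08 and 11.56 with FGF2 (2.33 ± 0.221, adjusted p 2.55e-06) and fell to 8.22, 7.79 and 7.82 with BMP4 (-1.25 ± 0.221, adjusted p 0.00581). These factors thus moved ANGPTL4 in opposite directions in PA6 cells. CITED2, which competes with HIF for a coactivator, fell in PA6 cells from 11.89, 11.73 and 11.89 to 10.28, 10.23 and 10.31 with FGF2 (-1.56 ± 0.109, adjusted p 9.28e-08). BHLHB2, a transcriptional repressor, rose (1.56 ± 0.205, adjusted p 6.13e-05), and TXNIP, which restrains glucose uptake, fell (-1.11 ± 0.122, adjusted p 1.23e-05).

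PPP1R3C, which directs a phosphatase to glycogen, also moved in opposite directions in PA6 cells. It read 11.25, 11.53 and 11.52 in -GFs, fell to 9.79, 8.92 and 9.91 with FGF2 (-1.89 ± 0.258, adjusted p 8.92e-05) and rose to 12.37, 12.52 and 12.56 with BMP4 (1.05 ± 0.258, adjusted p 0.0416). In the co-cultures it rose from 9.58, 9.36 and 9.47 to 10.87, 11.07 and 10.35 with BMP4 (1.30 ± 0.258, adjusted p 0.0281), and with FGF2 it read 8.98, 8.64 and 9.59 (-0.40 ± 0.258, adjusted p 0.485).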

How the data were processed

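Total RNA of 18 cultures was labelled and hybridised by the authors and read out with GenomeStudio (2011.01 per the labels). The deposited intensity values are on a linear scale, before normalization, and each has a deposited detection p-value against its array's negative controls. Lines with shifted cells (5) were left out. The study's methods name cubic spline normalization, an alternative here, and limma with the thresholds used here.

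Intensities were background corrected, quantile normalized and put on a log2 scale by neqc (limma 3.58.1, R 4.3.3, offset 16), which understates changes of dim genes. Probes needed a detection p below 0.05 on 3 arrays or more, and the probe of largest mean stood for its gene. A fit of 6 group means (lmFit, eBayes) gave all comparisons. Its test on simulated data drew independent noise for each array, so that it cannot speak for arrays paired by replicate number. An exact permutation of 3 arrays against 3 cannot go below p = 0.1. The number of arrays limits the precision.

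The genes and lists were chosen with earlier results of these data known. Array values are given for genes called against -GFs or in an interaction, for the 10 largest calls between culture types and for isozymes, other genes by ranges or changes, and related genes where called against -GFs. A few values outside that rule (PDHA1, the BMP4 arrays of SLC2A1 and EGLN3, leave-one-out calls) were chosen after they were seen. Replicate numbers are those of the labels. Deviations of co-culture arrays with the same number correlated at 0.325 to 0.521 in 9 of 9 pairs, so that the numbers pair them, and those of mono-cultures at 0.0628 to 0.164. Alternatives were other normalizations, filters, thresholds and variance models, a replicate block, the arrays of 1 culture type, other probes and leaving out each array.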

Additional observations from a re-analysis of the deposited data

Results flagged for a closer look

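For the effect of FGF2 in co-cultures against mono-cultures, the interaction contrast of the limma fit called 9 of the 31 genes. Of all genes it called 7.39%. The effect in co-cultures minus that in mono-cultures was -1.57 for the glucose transporter SLC2A1 and 1.12 for the phosphofructokinase PFKP. At the end of glycolysis it was -1.13 for PKM2, -1.27 for LDHA and -1.04 for PDK1. In oxygen sensing it was -1.45 for EPAS1 and -1.77 for EGLN3, and among hypoxia response genes -1.12 for DDIT4 and -1.14 for ANKRD37. EGLN3 was undetected in all PA6 groups, so that its value restates the fall in the co-cultures, and PDK1 was undetected in PA6 -GFs. In the same contrast 5 of 6 cycling markers were called lower and 3 of 6 adipocyte markers higher.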

How the results depend on the processing

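For FGF2 in the co-cultures the 2 calls became 1 with cubic spline or quantile normalization of uncorrected intensities, detection on all 18 arrays, an adjusted p under 0.05 or the co-culture arrays alone, and 10 with no fold threshold (1 to 2 without 1 array). For BMP4 there 1 became 0 with an adjusted p under 0.05 or the co-culture arrays alone (0 to 1 without 1 array). For FGF2 in the mono-cultures 4 became 2 with cubic spline or quantile normalization of uncorrected intensities and 14 with no fold threshold (3 to 5 without 1 array). For BMP4 there 0 became 1 with median scaling, the replicate block or the mono-culture arrays alone and 2 with no fold threshold (0 to 1 without 1 array). For FGF2 vs BMP4 with no fold threshold, 0 became 4 in the co-cultures (0 to 1 without 1 array) and 4 became 12 in the mono-cultures, there also 2 with cubic spline or quantile normalization of uncorrected intensities (2 to 4 without 1 array). For the difference of the FGF2 effects 9 became 15 with no fold threshold (5 to 10 without 1 array), and for that of the BMP4 effects 0 became 1 with the replicate block (0 to 1 without 1 array). Between culture types the 22 calls ran from 16 to 28 over the alternatives (22 to 23 without 1 array). The 16 came with detection on all 18 arrays, which left 24 genes tested. The 28 came with no fold threshold, where 11712 of all 16446 genes passed. ALDOA (0.85) and TPI1 (0.92) with median scaling and HK1 (-0.78) with cubic spline were under the fold threshold. Genes past the adjusted p at any fold, a count added after seeing the data, were 5 with median scaling and 3 with the co-culture arrays alone for FGF2 in the co-cultures, against 10 (2 to 7 without 1 array), and ran from 11 to 14 in the mono-cultures and from 12 to 16 for the difference without 1 array.

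Of the results given by gene, PFKL and SLC16A3 turned direction. The other PFKL probe gave 0.0897 for FGF2 in the co-cultures, -0.22 between culture types and 0.13 for the difference of the FGF2 effects. The other SLC16A3 probe gave -1.13, 1.35 and -1.05. Without 1 array the brighter SLC16A3 probe ran from -0.14 to 0.16 for FGF2 in the co-cultures and from -0.19 to 0.33 for the difference. The replicate block moved no other count of calls by over 1.5 times. Past the adjusted p at any fold it moved 1 to 3 for BMP4 in the co-cultures, 2 to 4 for BMP4 in the mono-cultures and 0 to 2 for the difference of the BMP4 effects. For FGF2 vs BMP4 it moved 4 to 6 in the co-cultures. The cause of these changes was not tested, other than fewer arrays or genes where an alternative is built that way. A fit with the slide as a block was not run, since the headers gave no slide. Quantile normalization sets the same overall scale for each array, so that a shift shared by all genes cannot be seen.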
